A study of Mus musculus with 32 samples.

Results

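The comparison described here is the second day of diphtheria toxin (DT) against the first day in femur marrow in which the adiponectin lineage is the target of the toxin. Its members were taken by title and number 8 of the 32 libraries of the study: 4 from DTRADQ mice with 2 days of DT and 4 from DTRADQ mice with 1 day. DTRADQ mice are C57BL/6 animals with the genotype DTR flox, ADQ Cre+, so that adiponectin-Cre switches on the inducible diphtheria toxin receptor in the cells that express it or descend from cells that did. The mice were 2 months old and received 100 ng of DT each day. Each library came from whole femur marrow of another mouse, so no mouse was followed from one day to the next. Both days share the receptor allele, the Cre and a first injection. The day 2 mice differ by a second injection and by a further day after the first. Later effects of the first injection and effects of the second cannot be told apart in this contrast. DTRADQ mice without DT (4 libraries) gave the starting level, and Cre-negative littermates with the genotype DTR flox, No Cre that received the same DT for 1 or 2 days (4 libraries each) showed what DT and time did without the Cre. All of these libraries carry the same lane label, while the day 3 libraries carry another. Day 3 levels are quoted below without a test. The day 3 libraries of both genotypes and the controls without DT also entered the fit that estimated the spread.

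Adiponectin-Cre marks marrow adipocytes and the reticular stromal cells around the sinusoids, which supply blood-forming cells with the chemokine Cxcl12 and with stem cell factor. Cells that bind the toxin take it up, it stops protein synthesis, and they die. Injured tissue commonly answers first with immediate early transcription factors and chemokines that draw in myeloid cells, and later with contractile, matrix-producing mesenchymal cells.

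Adipoq, the adiponectin transcript that marks the targeted lineage, was already low on day 1 and did not pass the test between the days. Without DT the 4 DTRADQ libraries held 28.6, 33.3, 47.6 and 28.8 CPM (counts relative to the library total, scaled by edgeR's TMM factors, as all levels below). On day 1 they held 0.882, 0.292, 0.381 and 1.07 CPM and on day 2 0.390, 0.612, 0.221 and 0.979 CPM, against 36.2 to 66.3 and 55.0 to 58.5 CPM in the controls. The log2 change from day 1 to day 2 was -0.27 (SE 0.57, adjusted p = 0.917 in edgeR's quasi-likelihood test). Every one of the 8 DTRADQ libraries with DT lay below every library without DT and every control, which fits the genotype and treatment labels. As Adipoq was as low on day 1 as on day 2, it does not check the labelled day.

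Library totals ran from 11.1 to 14.6 M counts on day 1 and from 11.54 to 14.4 M on day 2. Of the day 2 libraries, replicate 1 stood apart before any gene is discussed. Over all genes, the first principal component of the 8 libraries held 32.1% of the variance, with the day 1 libraries at -31.88, -4.89, -17.84 and -27.14 and the day 2 libraries at -12, 30.74, 41.69 and 21.31 in order of replicate. Replicate 1 thus lay among the day 1 libraries, although its Adipoq level was as low as in the others. Whether the day label of this library is right, and whether the mouse received both injections, cannot be told from the data, and it is kept as labelled. Its 10 most abundant genes took 25.1% of its counts, against 25.19% to 25.93% on day 1 and 27.95% to 30.19% in the other 3 day 2 libraries. Counts over all genes are therefore given with all 4 day 2 libraries and without replicate 1, as are several gene lists and single genes, and values with no such remark rest on all 4. Leaving it out raises the number of genes that pass by construction, because it is the library nearest to day 1, so those counts describe the other 3 mice and are no second test.

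Between day 1 and day 2, 114 of 14527 genes (0.785%) passed at an adjusted p of 0.05 in edgeR's quasi-likelihood test, 59 higher (0.406%) and 55 lower (0.379%). Among the higher genes were matrix proteins, bone genes and the contractile gene Tagln. Among the lower ones were immediate early transcription factors, DNA replication and mitosis genes and genes of early erythroid cells. Without replicate 1, 471 of 14785 genes passed (3.19%), 176 higher (1.19%) and 295 lower (2.00%), and 113 of the 114 were among them. In the controls 0 genes passed between the same days in edgeR, DESeq2 or voom, and 332 (2.29%) had an unadjusted p under 0.05 in edgeR, against 1749 (12%) in DTRADQ. The difference between the 2 changes, tested as a genotype by day interaction, also gave 0 genes, with 746 (5.14%) at an unadjusted p under 0.05 and 9 genes in DESeq2, so a change that passed in DTRADQ is not shown to be absent from the controls. Without replicate 1 the interaction passed for 38 genes (0.257%).

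The calls rested on every library and on the spread estimated over all 8 groups of the study. An edgeR fit of only the 8 libraries gave 0 of 12973 genes, with 2333 (18.0%) at an unadjusted p under 0.05. Leaving out replicates 1 to 4 of day 1 in turn left 17, 27, 25 and 13 higher genes and 4, 16, 9 and 1 lower ones. Leaving out replicates 2, 3 and 4 of day 2 left 9, 11 and 13 higher genes and 0, 1 and 0 lower ones. In each of the 8 fits with 1 library left out 7 genes passed, all higher: Tagln, Tnc, Col8a1, Emp1, Postn, Fstl1 and Fam149a. Without the day 3 libraries, which carry the other lane label, 15 genes were higher and 2 lower. Without replicates 3 and 4 of the controls that received no DT, 184 were higher and 301 lower. Both settings were chosen after seeing the data.

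**Figure D1:**
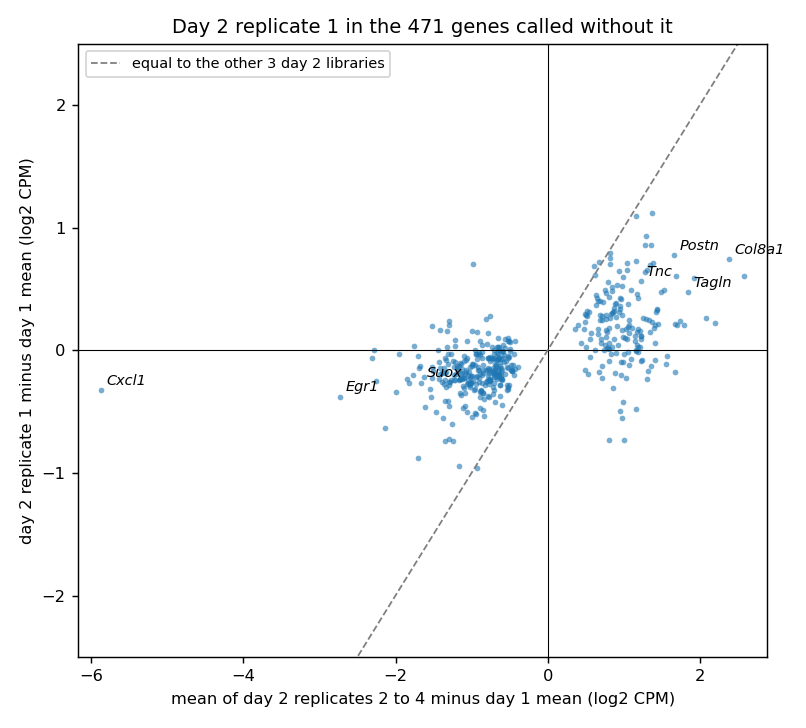
Each point is 1 of the 471 genes that passed without day 2 replicate 1; the horizontal axis gives the mean of day 2 replicates 2 to 4 minus the day 1 mean and the vertical axis day 2 replicate 1 minus the day 1 mean, both in log2 CPM. Most points lie near 0 on the vertical axis and far from the dashed line of equality, with a median of 19.44% of the way from day 1 to the other day 2 libraries.

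For the 471 genes, replicate 1 lay at a median of 19.44% of the distance from the day 1 mean to the mean of the other 3 day 2 libraries (quartiles 7.12% and 34.4%). It was nearer to day 1 in 411 of them, and in 75 it lay on the far side of the day 1 mean. These values describe genes that were selected without that library. For the other day 2 libraries the same measure gave 126%, 123% and 117% over the 9, 12 and 13 genes that passed without each. There the mean of the other 3 includes replicate 1, which draws it towards day 1, and the genes differ. Those values are therefore no benchmark for the 19.44%. The gene groups differed in where replicate 1 lay: 5.57% over 3 chemokines, 12.4% over 4 immediate early genes, -8.94% over 5 contractile genes, 20.99% over 15 matrix genes and 58.6% over 6 osteoblast genes. The values were 1.44% over 4 endothelial, 19.4% over 9 mitosis, 20.1% over 8 early erythroid and 25.8% over 13 DNA replication genes. They were 21.1% over 3 ribosome biogenesis and polyamine genes and 42.1% over 3 T and NK cell genes. These are medians over few genes of 1 mouse, and the differences between them were not tested.

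The early changes were counted by setting day 1 against DTRADQ without DT. Those that rose by day 1 numbered 183 (1.26%) and those that fell 613 (4.22%). This comparison and the one between the days share the day 1 libraries, so a high day 1 value by chance both makes an early rise and makes it fade, and the counts are descriptions. Of the 183 early rises, 7 (0.0482% of all genes) were lower on day 2 than on day 1, 2 (0.0138%) rose further and 174 did not pass between the days. On day 2, 113 of them still stood above the level without DT, as did 4.27% of all genes. Of the 613 early falls, 31 (0.213%) were higher on day 2, 0 fell further and 582 did not pass, and 331 still stood below the level without DT, as did 4.85% of all genes. New changes, which passed on day 2 against both day 1 and no DT but had not passed on day 1, numbered 15 rises (0.103%) and 19 falls (0.131%), and 40 genes that passed between the days belonged to none of these patterns. Without replicate 1 there were 32 faded rises (0.216%), 73 falls that came back (0.494%), 55 new rises (0.372%) and 125 new falls (0.845%), which held all genes of the first count.

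**Figure D2:**
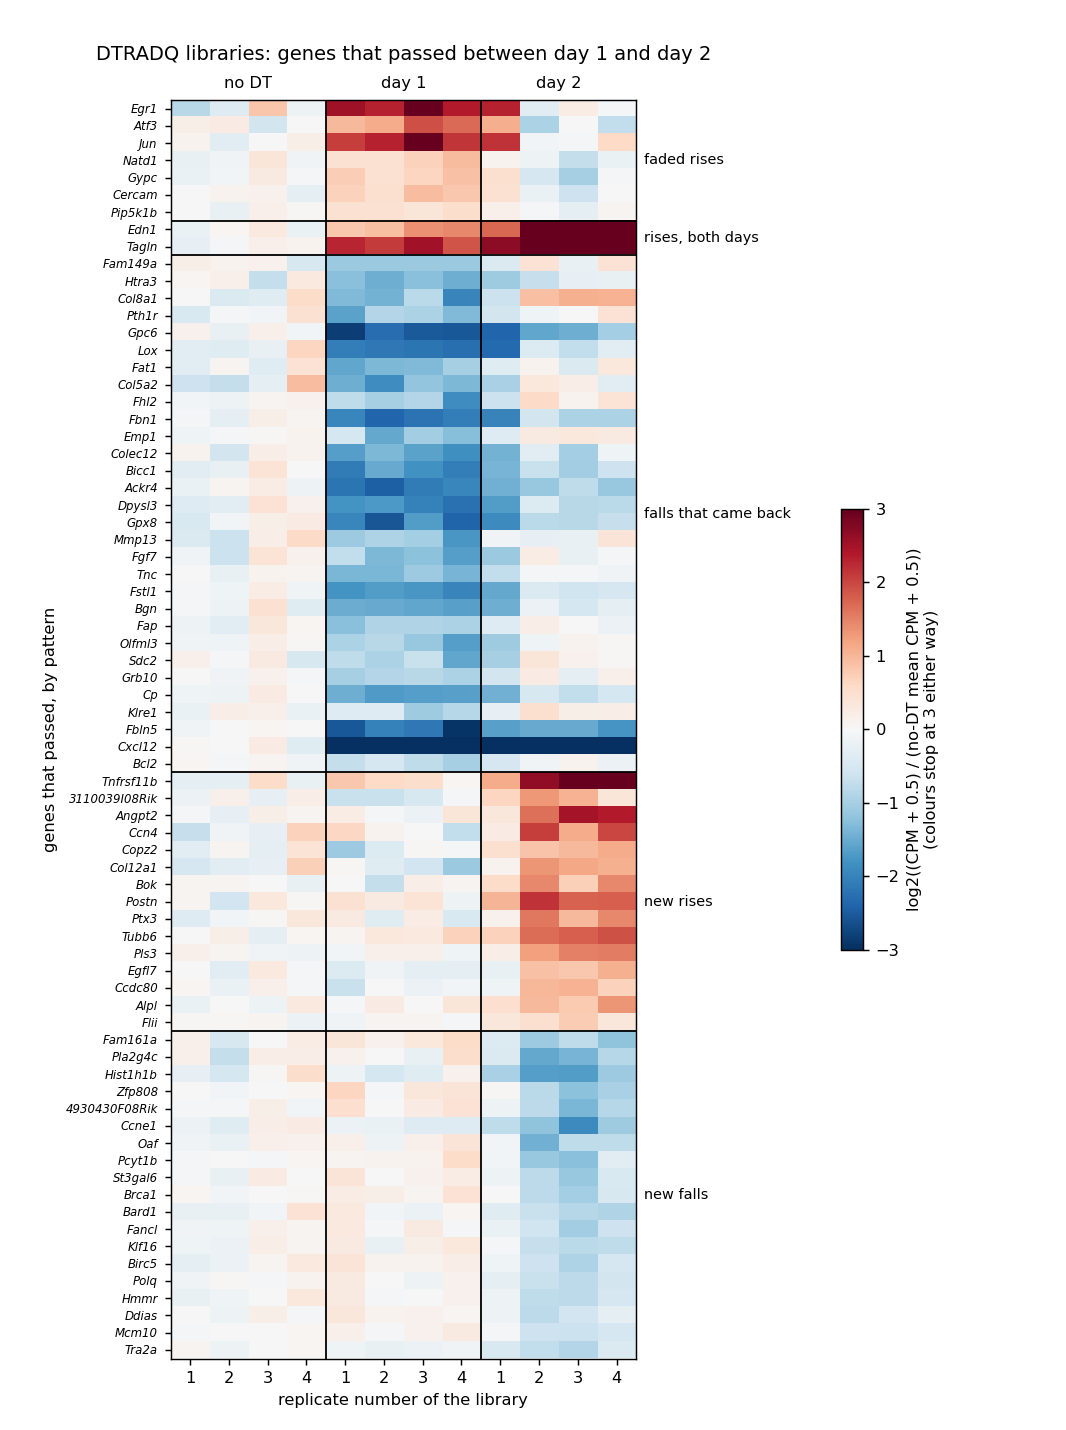
Heat map of 73 genes of the 5 patterns (rows) in the 12 DTRADQ libraries without DT, on day 1 and on day 2 (columns); colour is log2 of CPM plus 0.5 over the mean without DT plus 0.5, and stops at 3 either way. The first column of day 2, replicate 1, resembles the day 1 columns in most rows, while replicates 2 to 4 return towards white in the blocks of faded rises and of falls that came back, and depart from it in the blocks of new rises and new falls.

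The promoters of 3 genes are shown because these genes carry the faded and the returning patterns described next and hold a short motif of the families concerned. They are the 200 bases from 210 to 11 bases upstream of the RefSeq start on GRCm38.p6, Jun at chr4:95052233-95052432 (minus strand), Mmp13 at chr9:7272304-7272503 (plus strand) and Fhl2 at chr1:43163972-43164171 (minus strand, the more downstream of its 2 starts). Capitals mark the motif, TGACNTCA for Jun, TGANTCA for Mmp13 and a CArG box, the site of serum response factor, for Fhl2.
Jun: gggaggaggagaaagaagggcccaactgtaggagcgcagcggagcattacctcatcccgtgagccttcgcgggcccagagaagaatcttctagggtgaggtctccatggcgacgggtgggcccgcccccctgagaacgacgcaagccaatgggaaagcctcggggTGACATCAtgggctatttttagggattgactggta
Mmp13: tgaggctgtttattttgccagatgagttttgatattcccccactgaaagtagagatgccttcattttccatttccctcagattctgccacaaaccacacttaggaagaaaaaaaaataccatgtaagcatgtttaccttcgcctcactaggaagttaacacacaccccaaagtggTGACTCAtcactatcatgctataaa
Fhl2: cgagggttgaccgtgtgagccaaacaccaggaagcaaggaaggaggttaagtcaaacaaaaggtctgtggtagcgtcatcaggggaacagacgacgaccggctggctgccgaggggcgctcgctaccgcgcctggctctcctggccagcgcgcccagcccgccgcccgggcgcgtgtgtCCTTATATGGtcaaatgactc
The motifs begin 45, 35 and 31 bases upstream of the start. They were chosen after the sequences and the calls were seen, and both strands of the same 200-base stretch of each entry were searched. TGACNTCA, the form bound by Jun with Atf partners, occurred in 6.51% of all 32851 promoter entries, TGANTCA, the form bound by Fos and Jun, in 5.52% and the CArG box in 1.20%. Of the 59 higher genes 39 had a promoter entry, and 3, 5 and 1 of those held the 3 motifs in that order. Of the 55 lower genes 43 had one, and 2, 1 and 0 held them. The percentages count promoter entries, while a gene was counted when any of its entries held the motif. The gene counts and the percentages are therefore not in the same unit. A match is a description of the letters and shows no binding.

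The early rises that faded were led by immediate early transcription factors. Egr1, a zinc finger factor induced within minutes by growth factors and stress (ENSMUSG00000038418), held 24.7, 20.7, 48.3 and 22.03 CPM on day 1 and 20.8, 2.97, 4.49 and 3.72 CPM on day 2, against 1.92 to 7.11 CPM without DT. Replicates 2 to 4 of day 2 lay within the range without DT, and replicate 1 lay within the day 1 range, so the groups overlapped through that mouse alone. The log2 change was -1.84 (SE 0.41, adjusted p = 0.0335 in edgeR's quasi-likelihood test) and -2.94 without replicate 1 (adjusted p = 6.9e-06). In the controls Egr1 ran from 2.02 to 2.37 CPM on day 1 and from 2.15 to 4.08 CPM on day 2.

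Jun, a subunit of the AP-1 factor (ENSMUSG00000052684, chromosome 4, 95049034 to 95052222 in GRCm38), showed a like split of the libraries. It held 11.9, 14.2, 25.1 and 12.4 CPM on day 1 and 12.7, 2.27, 2.35 and 3.92 CPM on day 2, with 1.81 to 2.84 CPM without DT. Again only replicate 1 of day 2 reached the day 1 range. Its log2 change came to -1.57 (SE 0.38, adjusted p = 0.0411) and -2.48 without that library. Reads of Jun and of the antisense transcript that overlaps it cannot be told apart, because the strand setting of the counting is not given in the sources used here.

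Atf3, a stress-induced partner of Jun, held 3.68, 4.16, 7.61 and 6.40 CPM on day 1 and 4.05, 0.612, 1.62 and 0.783 CPM on day 2. Atf3 changed by -1.59 on the log2 scale (SE 0.37, adjusted p = 0.0401) and by -2.38 without replicate 1 (adjusted p = 0.0002). Day 1 replicate 3 was the highest of its group for Egr1, Jun and Atf3, and without it 0 faded rises passed. Of the 21 tested immediate early and ERK response genes, 3 fell and 0 rose between the days (4 and 0 without replicate 1, the fourth being Egr2), with a list median of -0.05 against 0.03 over all genes. The share that fell over all genes was 0.379%, and 2.00% without replicate 1. Fos, the other AP-1 subunit, held 8.53 to 30.7 CPM on day 1 and 4.70 to 12.4 CPM on day 2 (log2 change -0.90, adjusted p = 0.169), and replicate 1 was not its highest day 2 library.

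The other faded rises were small. Natd1, an acetyltransferase-domain gene, held 18.8 to 26.9 CPM on day 1 and 8.09 to 14.6 CPM on day 2, without overlap (log2 change -0.89, SE 0.20, adjusted p = 0.0307). Cercam held 21.3 to 29.2 CPM and then 9.64 to 20.9 CPM (-0.80), also without overlap, although its reads may include those of an overlapping gene. Pip5k1b, a lipid kinase that makes phosphatidylinositol bisphosphate, changed by -0.47. Gypc, glycophorin C of the red cell membrane, held 219.9 to 296 CPM on day 1 and 79.2 to 224 CPM on day 2, where replicate 1 gave the 224 CPM (-0.86, named after its values were seen). All 7 faded rises depended on the libraries: 1, 3, 0 and 0 remained called without day 1 replicates 1 to 4, 0 without any one of day 2 replicates 2 to 4, and 4 without the no-DT replicate 4.

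Some chemokines split replicate 1 from the other day 2 mice. Cxcl1, which draws in neutrophils (ENSMUSG00000029380, chromosome 5, 90891241 to 90893115), held 88.1, 73.5, 175 and 62.5 CPM on day 1 and 73.1, 0.524, 1.54 and 1.37 CPM on day 2. Replicate 1 lay within the day 1 range, and each of the other 3 lay below 2 CPM. With all 4 libraries it did not pass (log2 change -2.37, SE 0.89, adjusted p = 0.223), and without replicate 1 it passed (-6.41, adjusted p = 0.00013).

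Ccl2, which draws in monocytes (ENSMUSG00000035385, chromosome 11, 82035571 to 82037453), held 79.3, 72.6, 157 and 64.6 CPM on day 1 and 87.9, 18.8, 14.9 and 19.6 CPM on day 2. The other 3 day 2 libraries were below day 1 but above the 1.55 to 5.47 CPM without DT, so the decline was partial. On the log2 scale this was -1.40 (adjusted p = 0.127) and -2.39 without replicate 1 (adjusted p = 0.00044), and Ccl2 still passed on day 2 against no DT (3.39, adjusted p = 2.9e-05). Ccl7, its neighbour with the same receptor, held 5.98 to 12.7 CPM on day 1 and 3.83 to 6.93 CPM on day 2 and did not pass with or without replicate 1. Of 17 tested chemokines 0 passed between the days, and 3 fell without replicate 1, namely Cxcl1, Ccl2 and Cxcl10, the last by 1.59. Without replicate 1, 2.00% of all genes fell. Of 17 cytokine and NF-kB response genes 0 passed either way, Il6 among them (1.82 to 3.73 CPM and then 0.587 to 2.96 CPM).

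**Figure D3:**
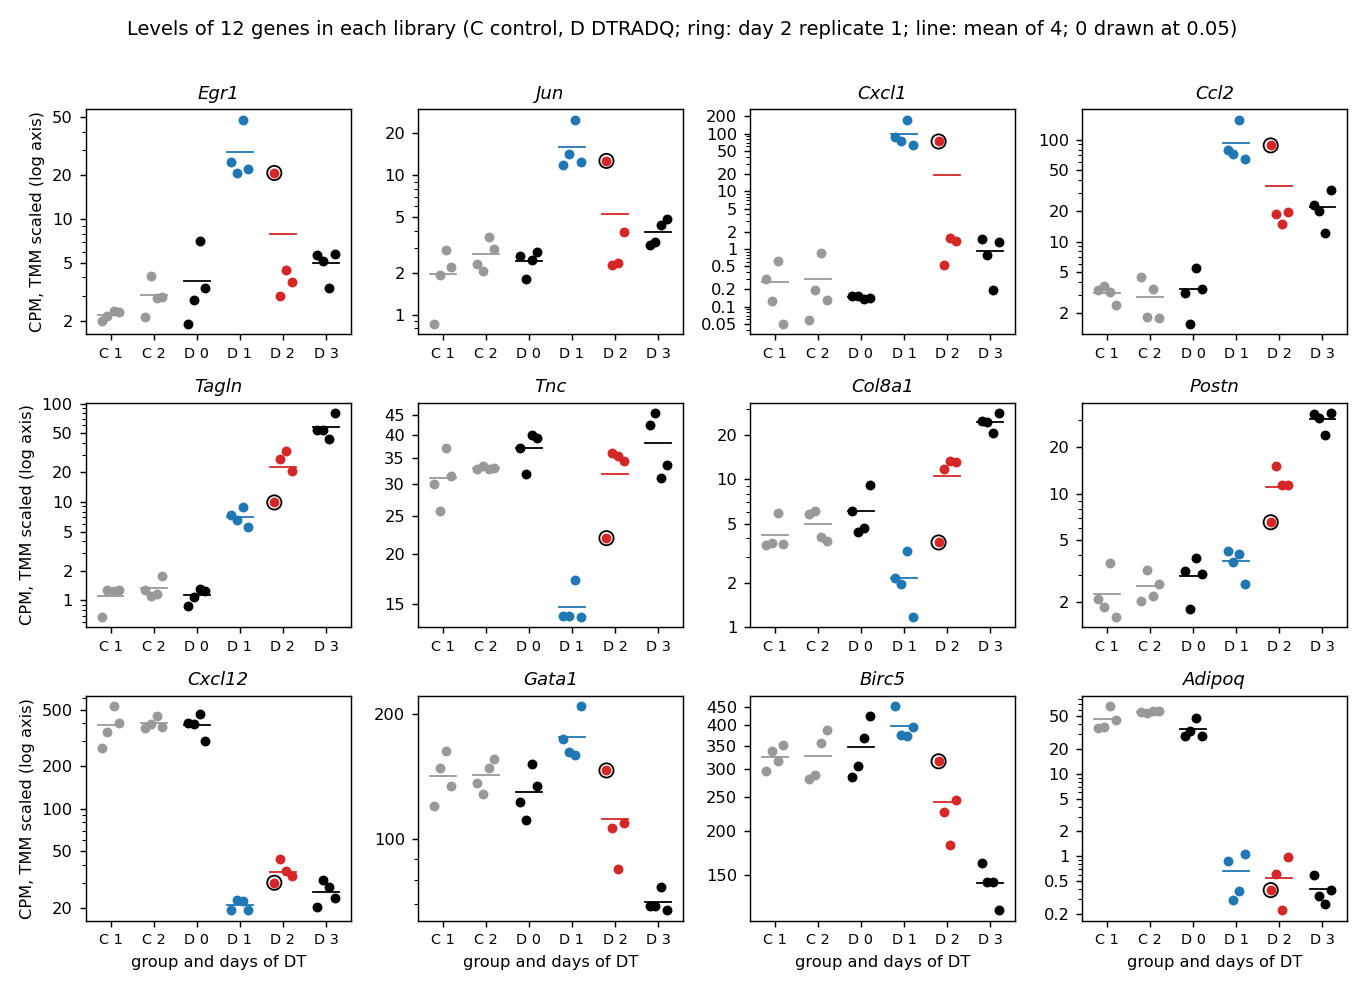
Levels of 12 genes in each library, in CPM on log axes, by group: controls after 1 and 2 days of DT (C 1, C 2) and DTRADQ after 0 to 3 days (D 0 to D 3); lines are means of 4, the ring marks day 2 replicate 1 and a level of 0 is drawn at 0.05. In the upper row the ringed library sits with day 1 for Egr1, Jun, Cxcl1 and Ccl2, while in the panel for Adipoq it sits with the other day 2 libraries.

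A pair of genes rose on both days. Tagln, transgelin, an actin-binding protein of smooth muscle and myofibroblasts (ENSMUSG00000032085, chromosome 9, 45929628 to 45936058), held 7.42, 6.49, 8.83 and 5.53 CPM on day 1 and 9.89, 27.4, 32.7 and 20.6 CPM on day 2, against 0.881 to 1.30 CPM without DT. All day 2 libraries lay above all day 1 libraries, replicate 1 by the least. The log2 change was 1.68 (SE 0.26, adjusted p = 0.000929) after 2.66 from no DT to day 1, and it passed without each of the 8 libraries in turn (1.94 without day 2 replicate 1). Its reads may include those of a gene that overlaps it. In the controls it stayed between 0.674 and 1.77 CPM.

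Edn1, endothelin 1, a peptide that contracts vessels, held 0.515, 0.584, 0.990 and 1.07 CPM on day 1 and 1.40, 4.72, 4.05 and 4.21 CPM on day 2 (log2 change 2.19, SE 0.42, adjusted p = 0.0104). The groups did not overlap, and replicate 1 was the lowest day 2 library. Of 15 tested contractile and CCN genes 1 rose and 0 fell between the days (median 0.41), and 5 rose without replicate 1 (median 0.49). For all genes the share that rose was 0.406%, and 1.19% without replicate 1. Acta2, the smooth muscle actin of myofibroblasts, held 14.6 to 26.4 CPM on day 1 and 19.0, 59.5, 57.0 and 47.8 CPM on day 2. It did not pass with all libraries (1.11, adjusted p = 0.136) and passed without replicate 1 (1.38, adjusted p = 0.018). Ccn2, connective tissue growth factor, held 2.21 to 3.01 CPM and then 3.43, 7.43, 8.90 and 7.44 CPM (1.37, adjusted p = 0.0615, and 1.61 with adjusted p = 0.0068 without replicate 1). Ccn1 had risen by day 1 and kept its level, with 9.27 to 13.4 CPM on day 1 and 9.43 to 11.8 CPM on day 2 (0.08, SE 0.31).

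The early falls that came back held genes of matrix and mesenchymal cells. Over the 31 genes the median log2 change between the days was 1.20, the groups did not overlap in 23, and in 5 the day 2 mean had reached the mean without DT. Of the 31, 11 still passed as lower on day 2 than without DT. Over all genes, 4.32% lay wholly above day 1 on day 2. With replicate 1 left out the day 2 libraries lay wholly above day 1 in all 31 and in 9.52% of all genes. The 31 genes were selected for passing between these same libraries. Their separation therefore follows largely from that selection and is no further support.

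Col8a1, a short-chain collagen of vessel walls and wounds (ENSMUSG00000068196, chromosome 16, 57624258 to 57754737), held 4.40 to 9.15 CPM without DT, 2.13, 1.97, 3.27 and 1.16 CPM on day 1 and 3.74, 11.8, 13.4 and 13.1 CPM on day 2. Replicate 1 stood just above the day 1 range and the other 3 above every library without DT. Between the days it changed by 2.27 on the log2 scale (SE 0.33, adjusted p = 0.000691). Tnc, tenascin C, an adhesion-modulating protein of healing tissue (ENSMUSG00000028364, chromosome 4, 63959785 to 64047015), held 14.0, 14.0, 17.2 and 13.9 CPM on day 1 and 21.97, 35.9, 35.5 and 34.5 CPM on day 2, with 31.9 to 40.1 CPM without DT. Its groups did not overlap, and replicate 1 lay at 45.6% of the distance from the day 1 mean to the mean of the other day 2 libraries. The log2 change was 1.11 (SE 0.15, adjusted p = 0.000169), the lowest adjusted p of the named genes, and the genotype by day difference was 1.03 (unadjusted p = 1.6e-05, adjusted p = 0.11). Reads of a gene that overlaps Tnc may be among its counts.

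Other matrix and adhesion genes returned with them. Fstl1, a secreted BMP-binding glycoprotein, held 13.8 to 17.1 CPM on day 1 and 18.9, 41.2, 36.9 and 39.0 CPM on day 2 (log2 change 1.11). Bgn, the proteoglycan biglycan, held 20.4 to 22.4 CPM and then 23.1, 56.8, 44.5 and 52.9 CPM (1.03). Lox, the enzyme that cross-links collagen, held 0.776 to 0.956 CPM and then 0.701, 4.11, 3.16 and 4.31 CPM, so replicate 1 lay below every day 1 library (1.80, SE 0.41, adjusted p = 0.0386, and 2.15 without it). Fap, a protease of activated fibroblasts, held 2.57 to 3.43 CPM and then 5.06 to 7.87 CPM (1.01). These 4 were named after their values were seen. Col5a2, a fibrillar collagen, changed by 1.61, Emp1, a membrane protein of growing cells, by 1.31, Dpysl3 by 1.23 and Fhl2, the actin-linked coactivator with the CArG box shown above, by 1.52, from 0.485 to 1.62 CPM on day 1 to 1.79, 4.89, 3.38 and 4.31 CPM.

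Genes of bone-forming cells were among those that came back and among the new rises. Mmp13, the collagenase of osteoblasts and hypertrophic cartilage, whose promoter stretch is printed above (ENSMUSG00000050578, chromosome 9, 7272514 to 7283333), held 34.0, 38.1, 35.7 and 21.4 CPM on day 1 and 68.2, 61.4, 62.5 and 95.2 CPM on day 2. Here replicate 1 was as high as replicates 2 and 3 and the groups did not overlap (log2 change 1.15, SE 0.29, adjusted p = 0.0491). Pth1r, the parathyroid hormone receptor, held 0.147 to 0.584 CPM on day 1 and 0.857, 1.31, 1.47 and 2.15 CPM on day 2 (1.85, adjusted p = 0.0386). Alpl, alkaline phosphatase, was a new rise, with 3.90 to 5.34 CPM and then 6.00, 8.48, 7.28 and 10.96 CPM (0.85, adjusted p = 0.0441). Of 20 tested osteoblast and osteocyte genes 4 rose and 0 fell (median 0.84), and 6 rose without replicate 1. Among all genes tested 0.406% rose, and 1.19% without replicate 1.

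Among genes of the targeted stroma Cxcl12 was the 1 that passed between the days with all libraries. This chemokine, which holds blood-forming cells in the marrow (ENSMUSG00000061353, chromosome 6, 117168535 to 117181367), had 302 to 466 CPM without DT, 19.1, 22.5, 22.3 and 19.3 CPM on day 1 and 30.0, 44.1, 36.1 and 33.3 CPM on day 2. The groups did not overlap, and the rise of 0.78 (SE 0.18, adjusted p = 0.0389) followed a fall of 4.23 on the log2 scale. Of 26 tested genes of adiponectin-lineage stroma 1 rose between the days, Cxcl12, and 0 fell (median 0.25), and without replicate 1 the count was 2 rises and 0 falls (median 0.28), the second being Pdgfra (1.85). Between the days 0.406% of all genes rose, and 1.19% without replicate 1. Against no DT the list had 22 falls and 1 rise on day 1, when 4.22% of all genes fell and 1.26% rose. On day 2 it had 22 falls and 0 rises, with 4.85% of all genes lower and 4.27% higher. Kitl, stem cell factor, held 11.5 to 22.8 CPM on day 1 and 7.14 to 15.6 CPM on day 2 (-0.45, adjusted p = 0.356), and Lepr, the leptin receptor, 0.9704 to 4.19 CPM and 1.66 to 3.38 CPM (-0.15). Ackr4, a scavenger receptor for chemokines, rose by 1.27, from 1.39 to 2.13 CPM to 3.27 to 5.59 CPM against 8.50 to 11.6 CPM without DT, with reads of an overlapping gene not told apart.

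In whole marrow a lower or higher level cannot be split into fewer or more cells of a type and less or more RNA in each. Of 24 tested collagens and matrix genes 10 rose and 0 fell between the days, with a median of 1.06 against 0.03 over all genes. Without replicate 1, 14 rose and 1 fell, Col5a1 by 1.11, and the median was 1.25. The shares of all genes that rose were 0.406% with all libraries and 1.19% without replicate 1. On day 1 against no DT, when 4.22% of all genes fell, the same list had 0 rises and 11 falls. Its summed level ran from 273 to 318 CPM on day 1 and from 348 to 627 CPM on day 2, where replicate 1 gave the 348 CPM, and from 469 to 914 CPM without DT, where replicate 4 had 219 CPM of Col1a1 against 28.6 to 43.6 CPM in the other 3; without that library 28 early falls came back. Col1a1, the main collagen of bone, did not pass (20.4 to 34.7 CPM on day 1, 21.3 to 85.7 CPM on day 2, log2 change 1.13, adjusted p = 0.308), and neither did Col3a1 (1.03, adjusted p = 0.172). Skeletal muscle genes, which mark tissue carried along from outside the marrow, had 0 of 14 tested members pass between the days. Their summed level ran from 47.1 to 69.5 CPM on day 1 and from 33.8 to 81.5 CPM on day 2. Without DT it ran from 50.02 to 411.8 CPM. On day 1 against no DT the muscle list had 5 falls and 0 rises (median -2.829). In the controls all 14 changes between the days were positive (median 1.394) and 0 passed. The part of carried-along tissue in the early falls was not tested. The osteoblast list, summed, ran from 328 to 456 CPM on day 1 and from 500.3 to 779.6 CPM on day 2. The part of either list in the rise of matrix genes was not tested.

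The new rises on day 2 held matrix, vascular and bone genes that had not passed on day 1. Postn, periostin, a matrix protein of wounds and periosteum (ENSMUSG00000027750, chromosome 3, 54361109 to 54391034), held 1.81 to 3.83 CPM without DT, 4.26, 3.65, 4.11 and 2.62 CPM on day 1 and 6.54, 15.0, 11.3 and 11.4 CPM on day 2. The groups did not overlap, with replicate 1 in between, and the log2 change was 1.58 (SE 0.27, adjusted p = 0.00422). It reached 24.0 to 33.2 CPM on day 3. Tnfrsf11b, osteoprotegerin, the decoy receptor that restrains osteoclasts, held 0.662, 0.511, 0.457 and 0.194 CPM on day 1 and 0.935, 3.67, 5.003 and 7.34 CPM on day 2 (adjusted p = 0.00978). Col12a1, a collagen that bridges fibrils, changed by 1.62 and Pls3, the actin-bundling plastin 3, by 1.23.

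Vascular genes among the new rises were Angpt2 and Egfl7. Angpt2, the angiopoietin that loosens vessel walls (named after its values were seen), held 2.44 to 3.78 CPM on day 1 and 3.74, 9.96, 18.3 and 16.7 CPM on day 2, so that replicate 1 overlapped day 1 and the other 3 did not (log2 change 1.99, SE 0.36, adjusted p = 0.0068). Egfl7, a factor secreted by endothelium, held 6.54 to 8.24 CPM and then 7.56, 16.7, 15.8 and 19.0 CPM (1.01, adjusted p = 0.0386), again with replicate 1 in the day 1 range and with an overlapping gene. Of 20 tested endothelial genes 1 rose and 0 fell (median 0.42), and 4 rose without replicate 1, adding Emcn, Stab1 and Eng. The share of all genes that rose was 0.406% with all libraries and 1.19% without replicate 1. Fn1, fibronectin, rose by 0.79, from 57.9, 81.6, 67.4 and 75.8 CPM to 115, 129, 132 and 114 CPM, with replicate 1 as high as the rest, and belonged to no pattern because day 2 did not pass against no DT. Without the no-DT replicates 2 and 3 the new rises numbered 8 and 7, without day 1 replicates 1 to 4 they numbered 4, 8, 6 and 5, and without day 2 replicates 2 to 4 they numbered 3, 2 and 4.

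The new falls on day 2 held genes of the cell cycle. Of 24 tested DNA replication genes 4 fell and 0 rose, against 0.379% of all genes that fell. All 24 had a negative log2 change (median -0.49 against 0.03 over all genes), while 7826 of the 14527 genes tested had a positive one. Of 22 tested mitosis genes 2 fell and 0 rose, and all 22 were negative (median -0.38). Without replicate 1, 13 and 9 fell, with medians of -0.64 and -0.50, against 2.00% of all genes that fell. Their summed levels in replicate 1, 4145 and 4911 CPM, lay below the day 1 ranges of 4426 to 4959 and 4931 to 5654 CPM and were the highest of day 2, whose lowest sums were 2388 and 3198 CPM. Genes of 1 list share cells and do not count as independent.

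Birc5, survivin, which acts in chromosome segregation (ENSMUSG00000017716, chromosome 11, 117849251 to 117855743), held 454, 374, 372 and 396 CPM on day 1 and 316, 226, 183 and 246 CPM on day 2, against 284 to 426 CPM without DT. The groups did not overlap, and the log2 change was -0.72 (SE 0.16, adjusted p = 0.0386). Ccne1, cyclin E1, which drives entry into DNA synthesis, held 25.1, 24.6, 21.7 and 21.7 CPM and then 16.6, 11.97, 7.21 and 13.3 CPM (-0.93, adjusted p = 0.0386). Hist1h1b, a replication-dependent linker histone, held 108 to 170 CPM and then 79.2, 49.0, 48.0 and 72.4 CPM (-1.11, adjusted p = 0.0335). Mcm10, a DNA replication factor, changed by -0.57, Hmmr, a spindle protein, by -0.63 and Brca1, the repair gene (named after its values were seen), by -0.75. Mki67, the proliferation marker, did not pass, with 663 to 785 CPM on day 1 and 660, 489, 396 and 566 CPM on day 2 (-0.42, adjusted p = 0.312).

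Outside the cell cycle, Fam161a, a ciliary gene, held 3.94 to 5.43 CPM and then 1.27 to 2.57 CPM without overlap (-1.36, SE 0.26, adjusted p = 0.0111). Pla2g4c, a phospholipase, changed by -1.20 and Pcyt1b, an enzyme of phosphatidylcholine synthesis, by -0.86. The new falls numbered 5 and 4 without no-DT replicates 3 and 4, 3, 7, 5 and 1 without day 1 replicates 1 to 4, and 0, 1 and 0 without day 2 replicates 2 to 4. Over all genes, 5.14% lay wholly below day 1 on day 2.

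**Figure D4:**
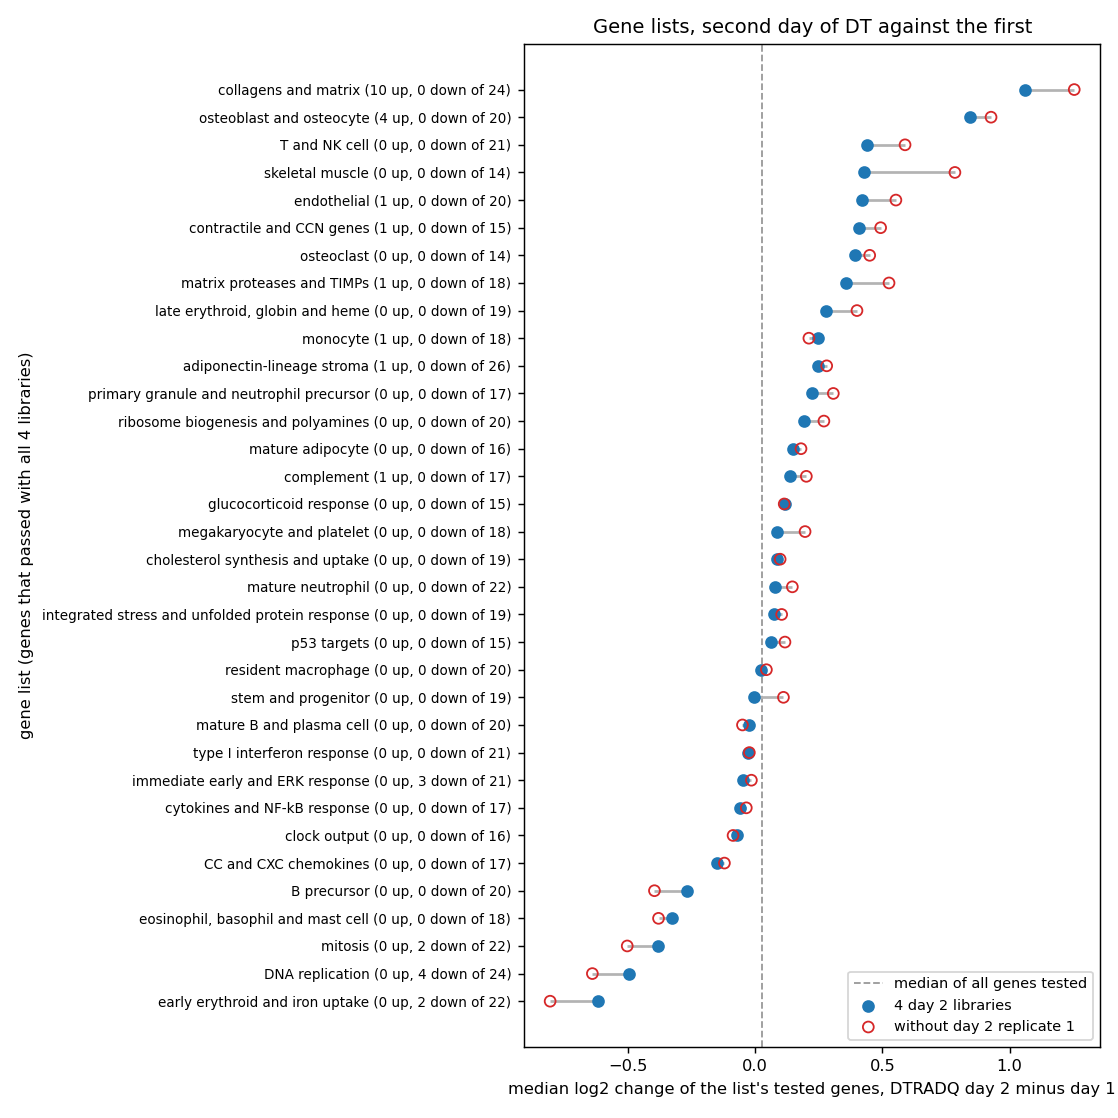
Median log2 change from day 1 to day 2 of the tested genes in each of 34 lists (vertical axis, with the number that passed), with all 4 day 2 libraries (filled) and without replicate 1 (open); the dashed line is the median of all genes, 0.03. Collagens and matrix (1.06) and osteoblast genes (0.84) lie farthest to the right and early erythroid genes (-0.62) farthest to the left.

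Some genes of early erythroid cells fell as well. Gata1, the master transcription factor of red cells and megakaryocytes (ENSMUSG00000031162, chromosome X, 7959260 to 7978071), held 112 to 151 CPM without DT, 174, 162, 159 and 209 CPM on day 1 and 146, 107, 85.1 and 109 CPM on day 2. All day 2 libraries lay below all day 1 libraries (log2 change -0.65, SE 0.15, adjusted p = 0.0402). Neither day 2 (-0.22, adjusted p = 0.40) nor day 1 (0.44, adjusted p = 0.095) passed against no DT, so Gata1 belonged to no pattern.

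Add2, a protein of the red cell skeleton, held 104, 92.6, 104 and 132 CPM and then 92.9, 50.6, 28.6 and 63.9 CPM (-0.87, adjusted p = 0.0493), with replicate 1 at the edge of the day 1 range. Redrum, a long noncoding RNA of erythroid cells, held 66.5, 43.6, 46.0 and 46.7 CPM and then 41.4, 15.3, 7.87 and 21.7 CPM (-1.23, SE 0.29, adjusted p = 0.0402, and -1.77 without replicate 1). Suox, sulfite oxidase, changed by -1.19 (-1.69 without replicate 1) and Gid8, a subunit of a ubiquitin ligase, by -0.89. Of 22 tested early erythroid and iron uptake genes 2 fell and 0 rose, all 22 were negative (median -0.62), and 8 fell without replicate 1 (median -0.81). Over all genes tested 0.379% fell with all libraries and 2.00% without replicate 1, and 7826 of 14527 were positive with all libraries. The list's summed level ran from 21180 to 28680 CPM on day 1 and from 8588 to 22250 CPM on day 2, where replicate 1 had 20160 CPM. Tfrc, the transferrin receptor, did not pass (315 to 408 CPM, then 427, 207, 124 and 290 CPM). Genes of late erythroid cells, globin and heme had 0 of 19 pass and a positive median of 0.28 (0 rose and 1, Cpox, fell by 1.32 without replicate 1, median 0.40), so the early and late erythroid lists had medians of opposite sign. The late list was mixed, with 14 of its 19 genes positive. Without replicate 1, 3 of its genes lay wholly below day 1 and 0 wholly above. Over all 14527 genes those counts were 1538 and 1383. The difference between the lists was not tested.

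Markers of other cells gave few calls. Neutrophil precursor genes (0 of 17 passed, median 0.22), mature neutrophil genes (0 of 22, 0.08), resident macrophage genes (0 of 20, 0.02) and type I interferon response genes (0 of 21, -0.03) gave no call between the days with all libraries, and without replicate 1 the interferon list had 1 fall, Cmpk2, and the other 3 lists none. Elane, the elastase of neutrophil precursors, held 1036 to 1842 CPM on day 1 and 1301 to 2057 CPM on day 2, and S100a8, a calcium-binding protein of neutrophils, 30550 to 47530 CPM and 36690 to 50700 CPM. Monocyte genes had 1 of 18 rise, Fn1, and T and NK cell genes 0 of 21 with a median of 0.44 (3 rose without replicate 1, Il2rb, Klrb1c and Gzma). Genes of ribosome biogenesis and polyamine synthesis had 0 of 20 pass, and 3 rose without replicate 1. Rises over all genes made up 0.406% with all libraries and 1.19% without replicate 1. Hmox1, heme oxygenase 1, held 145 to 184 CPM on day 1 and 165, 262, 244 and 412 CPM on day 2 (0.64, adjusted p = 0.299), and Hbegf, whose human form is the diphtheria toxin receptor, 0.685 to 1.39 CPM and 0.545 to 2.84 CPM (0.69, adjusted p = 0.542).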

How the data were processed

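Total RNA of whole femur marrow was sequenced from Clontech SMARTer libraries, per the labels' protocols. STAR 2.0.4b, featureCounts 1.45, Subread and bcl2fastq were used with the build GRCm38, per the submitters' processing notes. Strand setting, annotation release and multi-mapping rule: not given in the sources used here. The deposited tables hold raw counts, CPM and RPKM for each gene, per the file headers. The deposited CPM values equal counts per library total to within 4.4e-10, and the deposited RPKM values equal CPM per kilobase of gene length to a relative 3.9e-14. Only the counts were analysed.

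Counts of 41388 genes were analysed in R 4.3.3. The 14527 genes kept by filterByExpr (edgeR 4.0.16, minimum count 10) entered 1 quasi-likelihood model of the 8 group means with TMM scaling. P-values are two-sided and adjusted by Benjamini-Hochberg over all genes tested, with a threshold of 0.05, also where a sentence of the text gives only "adjusted p". The standard error (SE) is the absolute log2 change over the square root of F. CPM as printed uses TMM factors. The script was tested on simulated counts. No 2 libraries of a group were copies (at least 9.69 chi-square units per gene). No label says more of the mice than 4 per group, so p-values measure the spread between these libraries.

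The comparison, the 34 gene lists and the alternatives were chosen with earlier results of these data known. Named genes were the 10 largest rises and falls among genes that passed, with mean log2 CPM from 1 upwards and no overlap of the 4 and 4 libraries, the 5 largest of each pattern by the same filters, up to 3 members with the smallest p of each list, and a fixed set; only some of those are printed. Chosen outside the rule, with values already seen, were Gypc, Lox, Fstl1, Bgn, Fap, Angpt2 and Brca1 and the list members named as called without day 2 replicate 1. Alternatives were DESeq2 1.42.0, its size factors, no filter on low counts, only the groups compared, voom with sample weights (limma 3.58.1), the replicate number as a block and each library left out. A gene that met the rule is not reported here. Promoter sequences are RefSeq's, matched by symbol.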

Additional observations from a re-analysis of the deposited data

Results flagged for a closer look

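For 68 named genes the highest and lowest library of the day 1 group and of the day 2 group were set against the other 3, which is 136 groups. A library counts as far from the others when its gap to the nearest is over Dixon's critical share of the range of the 4, which chance alone gives in about 1 of 20 groups. Of the groups, 19 had such a library, 11 on day 1, 7 in day 2 replicate 1 and 1 in another day 2 library.

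Day 2 replicate 1 was far above the other 3 for Egr1 (20.8 CPM against 2.97 to 4.49 CPM), Jun (12.7 against 2.27 to 3.92 CPM), Cxcl1 (73.1 against 0.524 to 1.54 CPM) and Ccl2 (87.9 against 14.9 to 19.6 CPM). It was far below them for Col8a1 (3.74 against 11.8 to 13.4 CPM), Tnc (21.97 against 34.5 to 35.9 CPM) and Emp1 (4.99 against 8.12 to 8.46 CPM). In each of these 7 genes it lay on the side of day 1.

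Day 1 replicate 3 was far above its group for Egr1 (48.3 CPM), Jun (25.1 CPM), Ccl2 (157 CPM), Ccn1 (13.4 CPM) and Tnc (17.2 CPM). Day 1 replicate 1 was high for Prim1 (166 CPM, others 134.0 to 139.0 CPM) and Redrum (66.5 CPM) and low for Fap (2.57 CPM). Day 1 replicate 4 was high for Pcyt1b (24.6 CPM against 17.7 to 18.0 CPM), and day 1 replicate 2 was low for Hmox1 (145 CPM). Myl1, a skeletal muscle myosin light chain, was high in day 1 replicate 2 (5.18 CPM) and in day 2 replicate 2 (6.64 CPM), with 0 to 0.381 CPM and 0.0779 to 1.10 CPM in the others.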

How the results depend on the processing

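The counts of higher and lower genes (59 and 55) stayed within 1.5 times under DESeq2 size factors (57 and 65), no filter on low counts (65 and 68) and the replicate number as a block (62 and 67), and changed under every other setting tried. The replicate numbers did not pair the libraries: same-numbered day 1 and day 2 libraries correlated in their deviations at 0.132, 0.102, 0.037 and 0.032, and not every library correlated best with its own number. In the order higher, lower, faded rises, falls that came back, new rises and new falls, DESeq2 gave 101, 199, 28, 43, 31 and 61. Voom with sample weights gave 348, 603, 121, 118, 125 and 268 in that order. The fit of only the 8 libraries gave 0 higher and 0 lower genes. Another fit, which also held the 4 DTRADQ libraries without DT, gave 5, 15, 7 and 14 for the patterns. Settings chosen after seeing the data gave 184, 301, 60, 76, 61 and 132 without control no-DT replicates 3 and 4 and 15, 2, 0, 6, 5 and 2 without the day 3 libraries. Control no-DT replicates 3 and 4 had the lowest totals of the study, 9.49 and 8.97 M counts. Their 10 most abundant genes took 37.4% and 50.7% of the counts, against at most 30.87% in any other library. Both were kept in the main fit. Faded rises numbered 4 when early changes were taken against the controls of day 1. The genotype by day count was 9 in DESeq2, 2 with no filter and 0 otherwise, except for 38 without day 2 replicate 1. With 1 library left out, the same 6 counts ranged from 9 to 176, 0 to 295, 0 to 32, 5 to 73, 2 to 55 and 0 to 125, and genotype by day from 0 to 38. The highest of each came without day 2 replicate 1, by construction, since it lies nearest day 1. Controls gave 0 genes in every fit. The share of calls that were higher was 51.8%, but 33.7% in DESeq2, 36.6% in voom, 37.4% without day 2 replicate 1 and 88.2% without the day 3 libraries. Of 46 named genes that passed, DESeq2 and voom kept 46 each, no filter 41, the block 45, the fit without day 3 libraries 11, the fit of only the 8 libraries 0, and leaving out a library other than day 2 replicate 1 from 8 to 22. None of them changed sign. Signs turned for 3 genes that had not passed. Adipoq gave 0.076 in voom and from -0.66 to 0.017 with 1 library left out, and Lepr and Myl1 gave from -0.388 to 0.163 and from -1.441 to 3.379. Causes were not tested beyond what each setting removes.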

Other observations

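Day 3 levels, from libraries with another lane label and so not compared by a test, lay above the highest day 2 library for Tagln (44.0 to 80.6 CPM), Acta2 (108 to 135 CPM), Col8a1 (20.8 to 28.3 CPM), Postn (24.0 to 33.2 CPM), Lox (13.6 to 19.5 CPM) and Timp1 (14.7 to 28.8 CPM), whose day 2 maxima were 32.7, 59.5, 13.4, 15.0, 4.31 and 7.24 CPM. They lay below the lowest day 2 library for Gata1 (67.6 to 76.8 CPM), Birc5 (118 to 162 CPM) and Brca1 (18.1 to 23.1 CPM), whose day 2 minima were 85.1, 183 and 23.5 CPM. These genes were picked after their values were seen. For Egr1 (3.37 to 5.81 CPM), Cxcl1 (0.198 to 1.47 CPM) and Ccl2 (12.1 to 32.4 CPM) every day 3 library stood below day 2 replicate 1.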
